A study of Mus musculus with 6 samples.

Results

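The genes described here encode the signalling pathway of TGF-beta, the bone morphogenetic proteins (BMPs) and the activins, 39 genes chosen by name as ligands, receptors, extracellular modulators, SMADs, intracellular inhibitors and targets. The array names 17097 mouse genes through probe sets that carry 1 gene symbol each, and 37 of the 39 genes are among them, Inhbb and Gdf15 being the exceptions. A gene was read by its brightest probe set over all 6 arrays. The values are intensities of hybridised RNA on a log2 scale after quantile normalisation, which gives every array the same distribution of values. A difference of 1 on this scale is a 2-fold difference.

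Eosinophils were sorted from the stromal vascular fraction (SVF), the cells left when fat cells are removed from digested adipose tissue (AT), of the inguinal subcut AT of 3 WT and 3 Klf3-/- mice. All were male FVB/NJ littermates aged 12 weeks from crosses of Klf3+/- parents, kept at 22 °C on standard chow with no treatment, and the knock-out was present in every cell of the body and not in eosinophils alone. The gate took live CD45+ CD11b+ F4/80+ Siglec-F+ cells of high side scatter, and each array held the cells of 1 mouse. KLF3 is a transcriptional repressor that binds CACCC boxes, and the comparison asks how its loss alters the RNA of AT eosinophils.

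The gene Klf3 was read by 6 probe sets. One was lower in every array labelled Klf3-/- (7.33 to 8.04) than in every WT array (8.13 to 8.92), and the other 5 were higher in every array labelled Klf3-/-, with log2 fold changes of 0.69 to 2.83. No source used here says which of them lie in the deleted stretch, so the array does not check the genotype labels, and every direction given here is that of the labels. Of 10 eosinophil markers measured, 3 lay above the level set by 44 olfactory receptor probe sets (the 95th percentile of their means, 5.10), and Epx, Prg2, Siglecf, Ccr3, Il5ra, Alox15 and Gata1 lay below it. All 15 macrophage, 16 stromal, 11 endothelial and 9 dendritic markers lay above that level, so the label of eosinophils was not borne out by its defining markers, and the libraries are treated here as those of the sorted cells, whatever their type. In such bulk RNA, fewer cells of a type and less RNA per cell cannot be told apart.

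Ligands of this superfamily are secreted dimers that bring together type I and type II receptor kinases on the cell surface. TGF-beta and activin receptors phosphorylate SMAD2 and SMAD3, BMP receptors phosphorylate SMAD1 and SMAD5, and both kinds of SMAD enter the nucleus with SMAD4. Follistatin, gremlin and others bind ligands outside the cell, and SMAD6, SMAD7, SKI, SKIL and the SMURF ubiquitin ligases restrain the signal inside it. In AT, BMPs are known for committing progenitors to the fat lineage and TGF-beta for matrix production.

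No member passed the test between genotypes. Bmp2, Fst, Tgfb3, Bmp1 and Inhba were higher in the Klf3-/- arrays at an unadjusted p under 0.05, and no member was lower at that threshold. The 2 largest differences were those of the ligand Bmp2, with means of 8.23 ± 0.87 against 6.25 ± 0.19 in WT (SD of 3 arrays), and of the activin antagonist Fst, with 8.57 ± 0.91 against 6.66 ± 0.51. Of the receptors, SMADs, inhibitors and ID targets, 24 genes in all, none passed even the unadjusted threshold. Adjusted p from limma over all 45037 probe sets ran from 0.663 to 0.989 among the members, and 0% of all probe sets had an adjusted p under 0.05.

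Among the 37 members 22 were higher and 15 lower in Klf3-/-. Their median log2 fold change was 0.13, against -0.04 over all 17097 genes. Between mice of one genotype the median level of the members varied with an SD of 0.22. At an unadjusted p under 0.05 5 of the 37 members were higher, where 3.61% of all genes were, and 0 were lower, where 2.47% of all genes were. Bmp2, Fst, Tgfb3, Bmp1 and Tgfbr2 were the 5 members with every Klf3-/- array above every WT array, where 4.84% of all genes were so, and no member lay the other way, where 6.55% did. The mice were litter-matched and numbered 1 to 3 in each genotype, and with that number as a block in the model 6 members were higher at that threshold, where 4.45% of all genes were, with Acvr2a added. In that fit Id1 and Id2 were lower, where 3.5% of all genes were, and the adjusted p of every member was still 0.572 or more. Within all 3 pairs of one number 7 members were higher and 5 lower, where 11.8% and 18.8% of all genes were. The 5 members below the olfactory receptor level were Tgfb2, Inhba, Bmpr1a, Grem1 and Smad6. Of 19 members with several probe sets above that level, 8 had probe sets that differed in sign, namely Tgfbr1, Bmpr2, Acvrl1, Eng, Bmp1, Smad1, Smad5 and Smurf2.

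**Figure D1:**
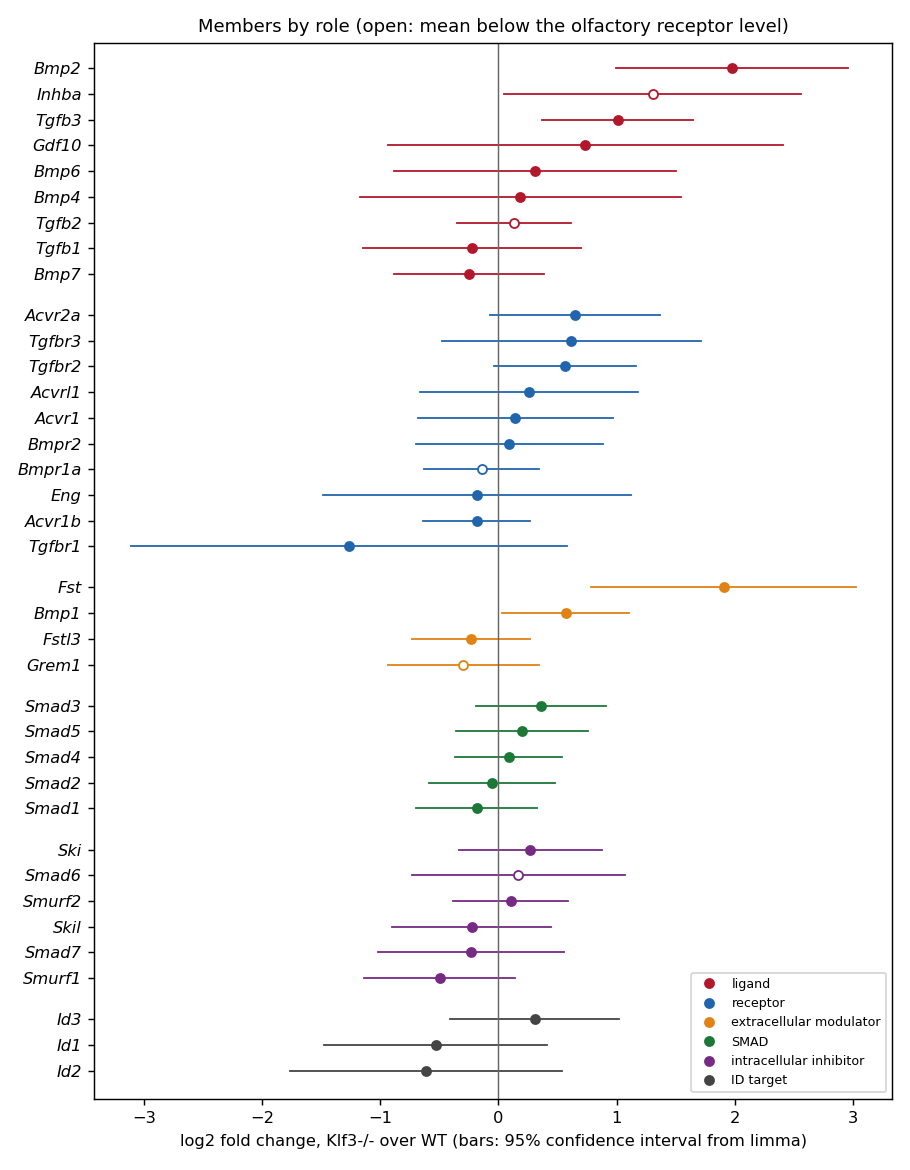
The log2 fold change of each of the 37 members (horizontal axis, Klf3-/- over WT, 3 arrays each) is drawn by role, with bars for the 95% confidence interval from limma and open points for genes below the olfactory receptor level. The intervals of Bmp2 (1.00 to 2.96), Fst (0.79 to 3.03) and Tgfb3 (0.37 to 1.65) lie to the right of 0. So, narrowly, do those of Bmp1 (0.03 to 1.11) and Inhba (0.05 to 2.56). Those of all SMADs, inhibitors and ID targets span 0.

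Bmp2, a BMP ligand, read 6.46, 6.09 and 6.21 in WT mice 1 to 3 and 7.23, 8.61 and 8.85 in Klf3-/- mice 1 to 3. The groups did not overlap, and Klf3-/- mouse 1 lay well under the other Klf3-/- mice. The log2 fold change was 1.98 with a standard error of 0.42, a fold of 3.94 (limma, adjusted p = 0.663). Leaving out 1 array gave 1.69 without Klf3-/- mouse 3 to 2.49 without Klf3-/- mouse 1. This gene was read by 1 probe set.

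Tgfb3, the third of the TGF-beta ligands, read 5.79, 6.36 and 6.45 in WT and 7.08, 6.93 and 7.62 in Klf3-/-. Every Klf3-/- array lay above every WT array, and the spread was alike in both groups (SD 0.36 each, n = 3). Its log2 fold change was 1.01 with a standard error of 0.27, a fold of 2.01 (limma, adjusted p = 0.834). Tgfb1, the main TGF-beta of blood cells, read 9.26, 8.66 and 9.50 in WT and 9.40, 8.11 and 9.24 in Klf3-/-. Here the groups overlapped, and the log2 fold change of -0.22 had a 95% interval of -1.14 to 0.70. The difference between the fold changes of Tgfb3 and Tgfb1 was not tested. Tgfb2, the remaining TGF-beta, was below the olfactory receptor level.

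Inhba encodes the subunit of activin A. It read 4.24, 4.43 and 4.09 in WT and 5.73, 4.32 and 6.63 in Klf3-/-. Only Klf3-/- mice 1 and 3 were above the olfactory receptor level of 5.10, while the reading of Klf3-/- mouse 2 fell among those of WT. The genotypes differed by 1.31 on the log2 scale with a standard error of 0.53 (limma, adjusted p = 0.901), and it was 0.77 without Klf3-/- mouse 3 and 1.90 without Klf3-/- mouse 2. A second probe set of Inhba, also below the level, had a log2 fold change of -0.10. Klf3-/- mice 1 and 3 also had the highest sums of epithelial markers, described with the marker lists.

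Gdf10, also called BMP3B, differed widely between mice of a genotype, with 7.32, 8.89 and 9.86 in WT and 8.79, 10.54 and 8.94 in Klf3-/-. The log2 fold change of 0.74 had a 95% interval of -0.94 to 2.41 and was 0.05 without WT mouse 1. Bmp4, Bmp6 and Bmp7, BMP ligands that like Bmp2 use type I receptors of the BMP class, had log2 fold changes of 0.19, 0.31 and -0.25 with overlapping groups. WT mouse 3 stood apart for Bmp4 at 6.99, against 4.68 and 4.86 in the other WT mice and 5.67 to 5.74 in Klf3-/-. Bmp7 was read by 3 probe sets, all lower in Klf3-/-, and for one of them every Klf3-/- array (4.81 to 5.01) lay below every WT array (5.28 to 5.79). That probe set had a log2 fold change of -0.57 (limma, adjusted p = 0.868).

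**Figure D2:**
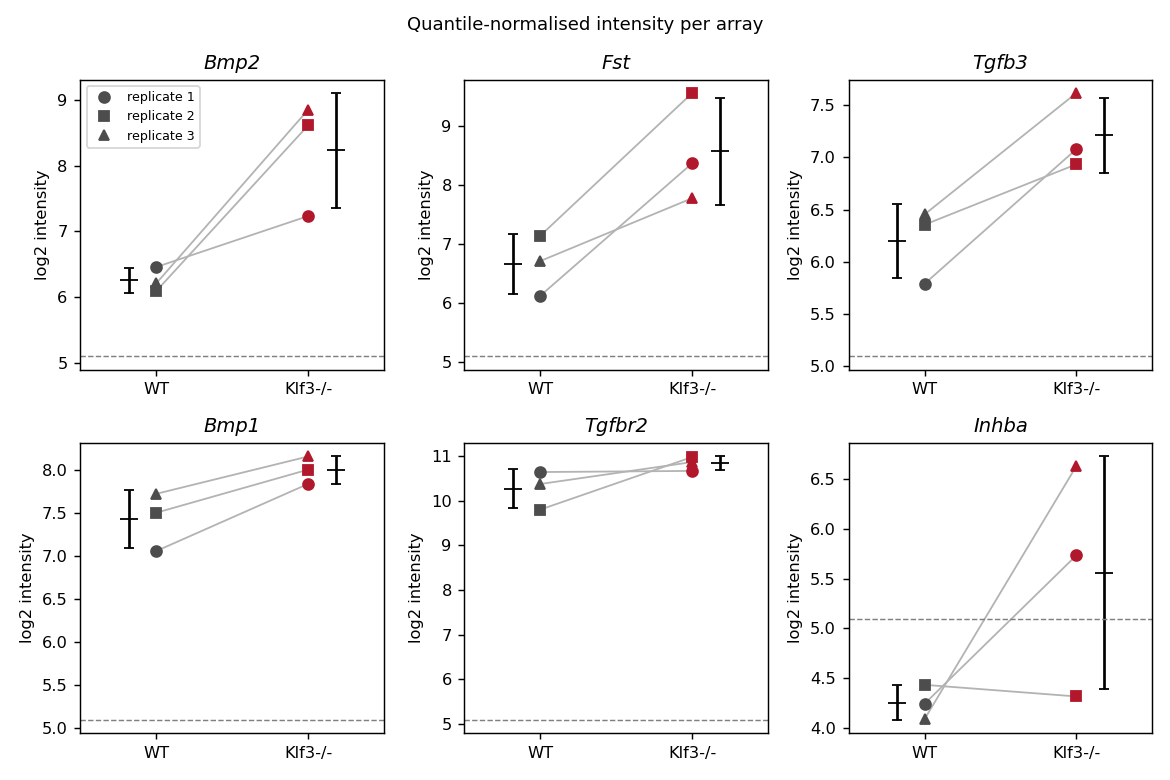
Quantile-normalised log2 intensity (vertical axis) of 6 members in each of the 6 arrays, with grey lines joining mice of one replicate number, black bars for the mean ± SD of 3 arrays and a dashed line at the olfactory receptor level of 5.10. The groups do not overlap for Bmp2, Fst, Tgfb3, Bmp1 and Tgfbr2, and Klf3-/- mouse 2 falls among the WT arrays for Inhba.

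Among the receptors 6 were higher and 4 lower, and none had an unadjusted p under 0.05. Tgfbr2, the type II receptor that binds TGF-beta, read 10.64, 9.80 and 10.38 in WT and 10.67, 10.98 and 10.87 in Klf3-/-. The groups did not overlap, although WT mouse 1 and Klf3-/- mouse 1 were almost level. This receptor differed by 0.56 on the log2 scale with a 95% interval of -0.04 to 1.16 (limma, adjusted p = 0.91), and it was 0.33 without WT mouse 2. A second probe set of Tgfbr2 above the level gave 0.66 (limma, adjusted p = 0.901), and there the groups overlapped.

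Tgfbr1, the type I receptor that works with it, gave a reading that depended on the probe set. The brightest read 9.19, 8.31 and 9.07 in WT and 8.88, 8.26 and 5.64 in Klf3-/-. Klf3-/- mouse 3 alone was low, and the log2 fold change of -1.26 had a 95% interval of -3.11 to 0.59. The other 2 probe sets gave 0.35 and 0.0016, with Klf3-/- mouse 3 within the range of the other arrays in the former. The coreceptor Tgfbr3, or betaglycan, which presents TGF-beta to the type II receptor, read 9.12, 8.01 and 9.33 in WT and 9.36, 10.20 and 8.76 in Klf3-/-. Its groups overlapped, with a log2 fold change of 0.62 (0.21 without WT mouse 2) and a 95% interval of -0.48 to 1.71.

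Acvr2a, a type II receptor shared by activins and BMPs, read 7.56, 8.11 and 8.39 in WT and 8.31, 9.15 and 8.56 in Klf3-/-. It was higher in Klf3-/- within all 3 pairs, by 0.74, 1.04 and 0.17, while the groups overlapped. The log2 fold change was 0.65 with a standard error of 0.31 (limma, adjusted p = 0.91), and with the replicate block the gene passed the unadjusted threshold at an adjusted p of 0.695. The type I receptors Acvr1, Acvr1b and Acvrl1 had log2 fold changes of 0.14, -0.18 and 0.26. Bmpr2, the BMP type II receptor, had 0.09 with a 95% interval of -0.70 to 0.88, and Eng, the coreceptor endoglin of endothelial cells, had -0.18 with an interval of -1.48 to 1.13. The type I receptor Bmpr1a was below the level in every array.

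Since KLF3 binds CACCC boxes, the letters CACCC were looked for on both strands of the promoters, taken as 250 bases before to 50 after the start of a gene in the RefSeq table of GRCm38.p6. The table held 28 promoters for 25 of the members, and only these were searched. Bmp2, Fst, Tgfb3 and Bmp1, which passed the unadjusted threshold, had no entry, nor had Id1, so their promoters were not searched. Inhba, the other member past that threshold, had an entry, and its promoter held CACCC at 0 places. CACCC was found in 20 of the 28, and in 57.5% of all 32851 promoters of the table. The promoters of Tgfbr2 and Acvr2a are shown because, of the receptors, Tgfbr2 alone had no overlap and Acvr2a alone passed the unadjusted threshold with the block. They run 5′ to 3′ along the gene, with CACCC or its reverse complement in capitals. That of Tgfbr2 lies at chr9:116175314-116175613 on the minus strand and that of Acvr2a at chr2:48813859-48814158 on the plus strand, and each holds the letters at 1 place.
Tgfbr2: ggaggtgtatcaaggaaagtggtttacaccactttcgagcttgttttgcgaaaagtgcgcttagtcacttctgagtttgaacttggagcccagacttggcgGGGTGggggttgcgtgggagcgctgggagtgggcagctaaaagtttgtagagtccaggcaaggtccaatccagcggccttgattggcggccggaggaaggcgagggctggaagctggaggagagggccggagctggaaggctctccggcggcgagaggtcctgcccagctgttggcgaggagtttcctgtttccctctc
Acvr2a: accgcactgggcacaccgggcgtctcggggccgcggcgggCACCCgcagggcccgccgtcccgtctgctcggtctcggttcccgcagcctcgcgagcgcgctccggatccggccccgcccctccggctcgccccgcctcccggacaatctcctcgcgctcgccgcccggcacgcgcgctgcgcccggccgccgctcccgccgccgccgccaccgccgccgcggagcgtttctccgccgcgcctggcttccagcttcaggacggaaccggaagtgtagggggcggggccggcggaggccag
A match of these letters is a description of the sequence and not a binding site. The palindrome GTCTAGAC, known for binding SMADs, was found in 1 of the 28 promoters and in 0.213% of all. The letters GGCGCC, known from BMP-responsive genes, were found in 11 of the 28, those of 10 genes, and in 11.9% of all. These letters are all G and C, and the 28 promoters had a GC content of 47.7% (Inhba) to 85.3% (Ski). The shares were not compared at equal GC content.

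Fst encodes follistatin, which binds activins and some BMPs and keeps them from their receptors. It read 6.12, 7.14 and 6.71 in WT and 8.37, 9.56 and 7.78 in Klf3-/-. No array overlapped, and Klf3-/- mouse 2 was the highest. Follistatin RNA differed by 1.91 on the log2 scale with a standard error of 0.48, a fold of 3.75 (limma, adjusted p = 0.781), and it ran from 1.40 without Klf3-/- mouse 2 to 2.32 without Klf3-/- mouse 3. A second probe set of Fst read 4.57, 5.72 and 5.24 in WT and 7.90, 9.09 and 6.20 in Klf3-/-. It had the same order among the Klf3-/- mice, and a log2 fold change of 2.55 (limma, adjusted p = 0.834). The summed stromal markers were likewise without overlap between genotypes, higher in Klf3-/- and highest in Klf3-/- mouse 2. The other orders differed. In WT the stromal sum was highest in mouse 3 and Fst in mouse 2. Klf3-/- mouse 3 had a higher stromal sum than Klf3-/- mouse 1 (27170 against 25020) but lower Fst. This comparison was made after the values were seen.

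Bmp1 is a metalloprotease that cuts procollagens and the BMP antagonist chordin, and is not itself a BMP. It read 7.05, 7.50 and 7.72 in WT and 7.83, 8.00 and 8.15 in Klf3-/-. The groups did not overlap, by a narrow margin. The gene differed by 0.57 on the log2 scale with a standard error of 0.23 (limma, adjusted p = 0.89). A second probe set gave 0.55 with groups that did not overlap, and the third gave -0.22. Fstl3, a relative of follistatin that also binds activins, had a log2 fold change of -0.23 with a 95% interval of -0.73 to 0.27. The BMP antagonist Grem1 was below the level in every array (3.67 to 4.67).

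The SMADs that carry the signal had log2 fold changes of -0.18 to 0.36, and none passed the unadjusted threshold. Smad4, the partner shared by both branches, read 9.55, 9.45 and 9.45 in WT and 9.81, 9.59 and 9.33 in Klf3-/-. Smad1, of the BMP branch, read 9.17, 8.61 and 8.72 in WT and 8.74, 8.76 and 8.46 in Klf3-/-. The groups overlapped for each, and the 95% intervals were -0.37 to 0.54 for Smad4 and -0.70 to 0.33 for Smad1. The other BMP-branch gene, Smad5, gave 0.20. In the TGF-beta and activin branch, Smad2 gave -0.05 and Smad3 gave 0.36 with an interval of -0.19 to 0.91. Smad3 was read by 3 probe sets, all higher in Klf3-/-, with log2 fold changes of 0.36 to 1.21, and the probe set with the largest read 3.98 in WT mouse 3 against 6.45 to 7.15 in the other 5 arrays.

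The inhibitors inside the cell were divided evenly, 3 higher and 3 lower. Ski, a corepressor that binds SMADs, read 10.16, 9.39 and 9.90 in WT and 10.14, 9.81 and 10.30 in Klf3-/-. Its relative Skil read 8.83, 9.53 and 8.88 in WT and 8.96, 9.18 and 8.42 in Klf3-/-. Both overlapped between genotypes, with log2 fold changes of 0.27 and -0.23, which became 0.05 and -0.0050 without WT mouse 2. Smad7, the inhibitory SMAD that TGF-beta induces, gave -0.23 with a 95% interval of -1.02 to 0.55. Smurf1 and Smurf2, the ubiquitin ligases, gave -0.50 and 0.10, and Smurf1 was lower within the pairs of mice 2 and 3 and level (0.04) within that of mouse 1. Smad6, the inhibitory SMAD of the BMP branch, lay below the olfactory receptor level on average, at 4.31 to 5.84.

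Id1, Id2 and Id3 encode inhibitors of basic helix-loop-helix factors and are induced directly by BMP signalling. Id1 read 7.28, 6.70 and 7.76 in WT and 7.10, 5.94 and 7.11 in Klf3-/-. Id2 read 9.59, 10.76 and 9.22 in WT and 9.42, 9.85 and 8.47 in Klf3-/-. For both the groups overlapped, yet the Klf3-/- mouse was the lower of every pair, by 0.18, 0.76 and 0.66 for Id1 and by 0.17, 0.91 and 0.75 for Id2. The log2 fold change of Id1 was -0.53 (limma, adjusted p = 0.945; with the replicate block, past the unadjusted threshold at an adjusted p = 0.697). That of Id2 was -0.61 (limma, adjusted p = 0.95; with the replicate block, past the unadjusted threshold at an adjusted p = 0.696). With 1 array left out Id1 ran from -0.79 without WT mouse 2 to -0.14 without Klf3-/- mouse 2, and Id2 from -0.92 without WT mouse 3 to -0.16 without WT mouse 2. All 3 probe sets of Id2 were lower in Klf3-/-, and the second, with a log2 fold change of -0.63, had no overlap (limma, adjusted p = 0.901). Id3 was higher in Klf3-/- in 2 pairs, with 7.81, 7.21 and 8.21 in WT and 8.30, 8.16 and 7.69 in Klf3-/-, and a log2 fold change of 0.31 (0.037 without WT mouse 2) with a 95% interval of -0.41 to 1.02. The promoter of Id2, at chr12:25096043-25096342 on the minus strand of GRCm38.p6, is shown because Id2 was lower with the replicate block, and it holds CACCC at 2 places, in capitals. Other members hold as many or more, among them Id3 with 2, Eng with 4 and Grem1 with 5.
Id2: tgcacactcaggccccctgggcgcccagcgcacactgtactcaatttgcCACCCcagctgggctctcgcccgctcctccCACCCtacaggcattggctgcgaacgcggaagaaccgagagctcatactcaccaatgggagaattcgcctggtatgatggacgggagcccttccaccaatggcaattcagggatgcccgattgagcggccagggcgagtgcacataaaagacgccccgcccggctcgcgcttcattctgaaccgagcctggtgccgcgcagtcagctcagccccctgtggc

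Of 107 further genes of the pathway, taken from textbook lists, 89 were measured, and 7 were higher and 4 lower in Klf3-/- at an unadjusted p under 0.05 (3.61% and 2.47% of all genes), with a median of 0.03 on the log2 scale. None passed the adjusted test. With the replicate block 5 were higher and 7 lower (4.45% and 3.5% of all genes). Among 15 other extracellular antagonists 4 were higher and none lower, and with the block Bmper alone was higher. Bmper, which like follistatin and chordin binds BMPs outside the cell, read 4.26, 4.48 and 4.84 in WT and 7.56, 8.73 and 5.64 in Klf3-/-, above the level only in the latter. Its log2 fold change of 2.78 (limma, adjusted p = 0.781) ran from 2.04 to 3.65 when 1 array was left out. Fstl1, Chrdl1 and Dcn, a secreted relative of follistatin, a chordin-like antagonist and a proteoglycan that binds TGF-beta, differed by 1.09, 0.97 and 0.71 on the log2 scale (adjusted p of 0.868, 0.901 and 0.901 from limma). Ltbp3, which holds latent TGF-beta in the matrix, was the 1 of 8 latency and activation genes past the unadjusted threshold, at 0.88 (limma, adjusted p = 0.868). The mean of its 3 probe sets gave only 0.25. With the block Ltbp1, at 1.03, was past the unadjusted threshold too, and Ltbp2 was lower, at -1.08.

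Of 10 other receptors and coreceptors, Bambi, a decoy receptor without a kinase, was lower, with 7.51, 6.56 and 6.47 in WT and 5.61, 6.09 and 5.88 in Klf3-/-. The groups did not overlap, and the log2 fold change was -0.99 (limma, adjusted p = 0.862). Bambi is also 1 of 10 textbook BMP targets measured, of which no other passed the unadjusted threshold. Of 16 textbook TGF-beta targets 2 were higher and none lower (3.61% and 2.47% of all genes). With the block 3, Acta2, Cdkn2b and Ltbp2, were lower as well (3.5% of all genes). The higher ones were Fn1, which encodes fibronectin, with a log2 fold change of 2.38 (limma, adjusted p = 0.663), and Klf10, the TGF-beta inducible early gene, with 1.28 (limma, adjusted p = 0.663). The TGF-beta targets as a whole had a median of -0.06. Acta2 is also 1 of 6 measured markers of mural cells, the cells around vessels. Those markers had a median log2 fold change of -0.48, with sums that overlapped between genotypes. The part of mural cell RNA in the value of Acta2 was not tested. Zfyve9, the anchor protein that brings SMADs to the receptor, was the 1 of 16 other intracellular regulators past the unadjusted threshold, at -0.57 (limma, adjusted p = 0.901). Of 17 other ligands of the superfamily 15 lay below the olfactory receptor level, Gdf2 and Lefty2 among them, which were the 2 lower ones at the unadjusted threshold.

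**Figure D3:**
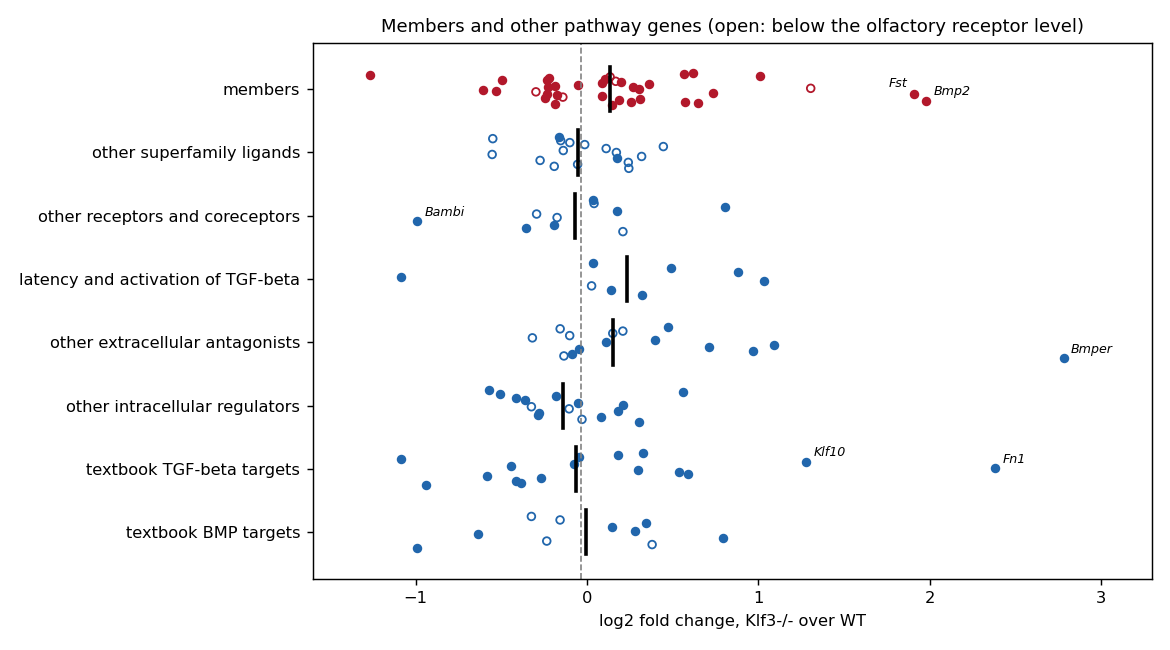
Each point is 1 gene, placed by its log2 fold change (horizontal axis, Klf3-/- over WT), for the members in red and for 7 lists of other pathway genes in blue. Open points are genes below the olfactory receptor level, black bars are medians and the dashed line is the median of all genes (-0.04), with Bmp2 (1.98), Fst (1.91), Bmper (2.78), Fn1 (2.38), Klf10 (1.28) and Bambi (-0.99) named.

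Markers of other cell types differed between the same arrays. All 16 stromal fibroblast and preadipocyte markers lay above the level, and their summed linear intensity after normalisation ran from 13334 to 23269 in WT and from 25020 to 38904 in Klf3-/-, with no overlap. Of them 9 were higher in Klf3-/- at an unadjusted p under 0.05, Dcn and Fn1 included, where 3.61% of all genes were. The median log2 fold change of the 16 was 0.96. Fst and Bmper were highest in Klf3-/- mouse 2, where the stromal sum was highest too. Both were lower in Klf3-/- mouse 3 than in Klf3-/- mouse 1, while the stromal sum was higher (27170 against 25020). The 7 mast cell markers, Fcer1a below the level, also had their highest sums in the mice numbered 2, with an overlap between 303 to 3610 in WT and 614 to 7615 in Klf3-/-. The part of stromal or mast cell RNA in the values of Fst, Bmper, Fstl1, Bmp1 and Tgfb3 was not tested. The 3 eosinophil markers above the level and the 7 below it summed to 1062 to 1152 in WT and 815 to 941 in Klf3-/-, again with no overlap. Of these 10 markers 4 were higher and 6 lower in Klf3-/-, none past the unadjusted threshold, with a median log2 fold change of -0.07. Taken singly, 2 had every Klf3-/- array below every WT array, where 6.55% of all genes did. The sums of the 9 dendritic markers did not overlap either, at 21501 to 28746 in WT and 16352 to 21089 in Klf3-/-.

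The epithelial markers, of which 5 of 6 lay above the level and Krt14 below it, summed to 274 to 471 in WT and to 1928, 404 and 4144 in Klf3-/- mice 1 to 3. Inhba was high in the same Klf3-/- mice 1 and 3 and within the WT range in mouse 2. The 15 macrophage markers had overlapping sums, 20730 to 36145 in WT and 25762 to 48863 in Klf3-/-. In Klf3-/- mice 1 to 3 they were 26896, 25762 and 48863, which is not the order of Bmp2. The macrophage marker Lyve1 did have the order of Bmp2 among the Klf3-/- mice. It read 7.98, 7.88 and 8.48 in WT and 8.67, 10.57 and 11.73 in Klf3-/-. Lyve1 was chosen after its values were seen, and its log2 fold change of 2.21 was the largest of the 15 macrophage markers. For the whole list the median was 0.14, and 3 of the 15 were lower in Klf3-/-. The endothelial sums, 1837 to 8028 in WT and 1424 to 5570 in Klf3-/-, overlapped and were lowest in both mice numbered 2. Those mice had the lowest Id1 and Eng of their genotype, a comparison likewise made after the values were seen. This order was not particular to the endothelial list. The macrophage sums were lowest in the same mice. So were the sums of mural markers (2082 in WT and 1022 in Klf3-/-) and of B cell markers (1230 and 864). The part of epithelial, macrophage, endothelial, mural or B cell RNA in these values was not tested.

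**Figure D4:**
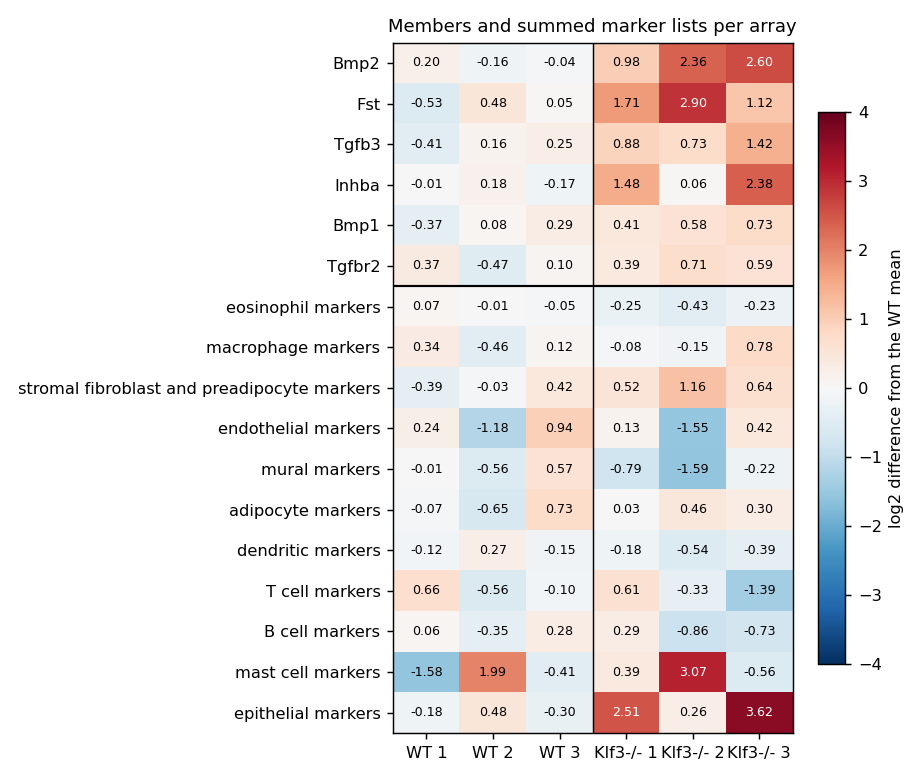
Each cell gives the difference, on the log2 scale, of an array from the mean of the 3 WT arrays, for 6 members (above the line, quantile-normalised values) and for the summed intensity of 11 marker lists (below it). The stromal sums of Klf3-/- mice lie 0.52 to 1.16 above the WT mean and the eosinophil sums 0.23 to 0.43 below it, and the epithelial sum is 2.51 and 3.62 above it in the mice where Inhba is 1.48 and 2.38 above it. Of the 10 eosinophil markers 7 lie below the olfactory receptor level, and 4 are higher and 6 lower in Klf3-/-.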

How the data were processed

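Gene expression was measured on 6 Affymetrix HT MG-430PM arrays, 3 per genotype. The authors deposited linear intensity values of 45037 probe sets, made with Partek per the submitters' processing notes and described as RMA normalised. No source used here says which steps of RMA were applied. Array medians ran from 30.3 to 58.7, so log2 values were quantile-normalised between arrays.

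Linear models with genotype as the only term (the second factor of the study's two-way analysis of variance is not named) were fitted with limma 3.58.1 (lmFit, eBayes) in R 4.3.3, and p-values were adjusted over all 45037 probe sets by Benjamini-Hochberg. The number of arrays limits the precision, and the mice are separate animals of one set of crosses. The step was tested on simulated data with each probe set's own mean and spread. At an adjusted p under 0.05 it recovered 2.94% of shifts of 1 on the log2 scale, 52.4% of shifts of 2 and 80.3% of shifts of 3. A member without a call may therefore still differ between genotypes. Genes were named through GEO's platform annotation, in which 28898 probe sets have 1 symbol, 551 several and 15588 none. All 37 measured members had their symbol in the RefSeq gene table, and 25 had an entry in the separate promoter table.

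Every array's value is given for members above the olfactory receptor level with an unadjusted p under 0.05 or no overlap and for the 2 brightest of each role, and the other members are summarised. Inhba, Tgfbr1 and the members past the unadjusted threshold only with the replicate block were added after their values were seen. Other pathway genes are named where the unadjusted p is under 0.05 and the mean lies above the olfactory receptor level. Outside that rule, Gdf2 and Lefty2, below the level, and Ltbp1, Ltbp2, Acta2 and Cdkn2b, past the threshold only with the replicate block, were added after their values were seen. The members and lists were chosen with earlier results of these data known.

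The labels call the mice litter-matched without saying that a number marks a litter. Deviations of same-numbered mice from the group means correlated at 0.168, 0.225 and 0.207, so the number was tried as a block and for pairs. Array medians as deposited also followed the number, with 36.8, 56.5 and 30.3 in WT mice 1 to 3 and 46.7, 58.7 and 35.4 in Klf3-/-. A shared litter and a shared step of processing cannot be told apart here. The pairing was drawn from the same values it was used on, so results by pair or block depend on it. The values as deposited, median centring, the replicate block, trend and robust fitting, array weights, one-way analysis of variance, a filter on dim probe sets, other choices of probe set, a threshold of 0.1 and leaving out each array were tried as alternatives. No group of 4 or more arrays exists, so outlying arrays were not tested.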

Additional observations from a re-analysis of the deposited data

How the results depend on the processing

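No member passed an adjusted p under 0.05 in any alternative run, or under 0.1, where 2 probe sets of the whole array passed with array weights, with the filter on dim probe sets or with the mean of a gene's probe sets. Tgfb3, Bmp2 and Fst kept an unadjusted p under 0.05 in every alternative. The 5 members higher at that threshold became 3 by analysis of variance and 3 above the olfactory receptor level, and ran from 3 to 6 when an array was left out. The lowest count, 3, came without WT mouse 2 or without Klf3-/- mouse 3, and 6 without WT mouse 3. The lower members, 0 at first, became 2 with the replicate block, which pairs mice of one number, and 0 to 2 with an array left out (2 without Klf3-/- mouse 1, Tgfbr1 and Smurf1). At the adjusted threshold the block changed no call. At the unadjusted one it added Acvr2a, Id1, Id2, Ltbp1, Ltbp2, Acta2 and Cdkn2b and ended the calls of Fstl1, Chrdl1 and Dcn. Of 389 values for 26 named genes, 385 kept their direction. With an array left out, Tgfb1 ran from -0.47 to 0.18 (highest without Klf3-/- mouse 2) and Smad4 from -0.029 to 0.21 (lowest without Klf3-/- mouse 1), and Smad1 was 0.037 as deposited and 0.019 as a mean of probe sets. The cause was not tested. As deposited, the median of all genes was 0.13 and that of the members 0.32, so the members' lead over all genes was 0.18, against 0.17 after normalisation. That lead was 0.05 to 0.22 with an array left out and least without WT mouse 2.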

Other observations

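Single probe sets of some members dropped out in 1 array. Of 58 probe sets of the members above the olfactory receptor level, 3 lay at least 2 log2 units under the lowest of the other 5 arrays in 1 array, the brightest of Tgfbr1 and the third of Id2 in Klf3-/- mouse 3 and one of Smad3 in WT mouse 3. Over the whole array 70 of 24912 probe sets (0.281%) did so, 27 of them in Klf3-/- mouse 3, 20 in WT mouse 3 and 1 in Klf3-/- mouse 2. The fold change of Tgfbr1 rests on such a value.

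The third probe set of Tgfbr1 followed the replicate number and not the genotype. It read 6.16, 4.90 and 4.28 in WT mice 1 to 3 and 6.18, 4.94 and 4.23 in Klf3-/- mice 1 to 3, so that mice of one number differed by 0.02, 0.04 and -0.05. It was chosen after its values were seen.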
